A study of Caenorhabditis elegans with 20 samples.

Results

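The ttr genes of Caenorhabditis elegans were taken as every gene whose WormBase symbol is ttr- followed by a number, which gave 58 genes of the 46925 in the deposited expression table. Of these, 50 had a mean normalized count of at least 2 over the 20 libraries and were tested among 17090 genes. The RNA came from whole animals in dauer, the arrested and stress-resistant alternative larval stage, and was sequenced in 4 conditions with 5 biological replicates each. All animals carried daf-2(e1370), a mutation in the insulin receptor gene that drives dauer entry at high temperature, and daf-16(ot853), in which the endogenous FoxO transcription factor DAF-16 bears a fluorescent protein and an auxin-inducible degron (AID). Strain OH17582 also carried otSi2, which expresses the plant F-box protein TIR1(F79G) fused to mRuby from the intestinal ges-1 promoter, whereas strain OH14654 lacked it. Animals were raised for 3 days at 25°C on plates with 0.2% ethanol, the solvent, in all 4 conditions. The plates held either 100 μM 5-Ph-IAA, the synthetic ligand that makes TIR1(F79G) bind the degron, or the solvent alone. The experimental animals had TIR1 and 5-Ph-IAA, the no TIR1 control had 5-Ph-IAA alone, the no auxin control had TIR1 alone, and the remaining condition had neither component. Each replicate pooled about 24000 animals, and the rare animals that were not dauers were picked off by eye. The comparison asks how RNA levels in the dauer depend on DAF-16 in the intestine.

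The ttr genes encode small, mostly secreted proteins with a transthyretin-like domain, a family greatly expanded in nematodes. Transthyretin itself, the vertebrate relative, carries thyroid hormone and retinol-binding protein in blood, while an older branch of the superfamily hydrolyses hydroxyisourate in the breakdown of urate. For most worm members no function is known. TTR-52 is secreted from intestinal cells and bridges phosphatidylserine on dying cells to the engulfment receptor CED-1, TTR-11 binds phosphatidylserine and an integrin in regenerating axons, and TTR-33 protects dopaminergic neurons against oxidative stress.

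Depth ranged from 6249223 to 12680810 reads on genes in the 15 control libraries and from 3989669 to 15585703 in the experimental libraries, of which 5420 to 25737 per library fell on ttr genes. Experimental replicate 5 was the shallowest library and had 21.4% of its reads on ribosomal RNA, against 1.78% to 7.07% in the other 19. The daf-16 transcript was at 8334 ± 492 normalized counts (mean ± SD, n = 5) in experimental animals, 8682 ± 281 in the no TIR1 control and 8764 ± 217 in the no auxin control. The degron acts on the protein, so this transcript does not check the depletion. Some markers of other stages and cells moved with the experimental condition, and others did not. The summed level of 10 oocyte markers was 2816 to 7053 normalized counts in experimental libraries and 1588 to 3173 in controls, and all 10 were called higher against the no TIR1 control and 9 relative to the no auxin control. The summed level of the 6 vitellogenin genes, which encode yolk proteins, was 8617 to 53264 against 0.991 to 14135, with 6 of 6 called higher in both comparisons. Of 5 tested adult cuticle collagens 4 were called higher in both comparisons, with sums of 347 to 772 in experimental libraries and 10.9 to 453 in controls. The 7 intestinal markers summed to 13726 to 14692 against 9303 to 9939, with 4 called higher in each comparison. The 8 neuronal markers summed to 21659 to 22628 against 23284 to 26221, with 0 called in either comparison. Sums overlapped for sperm (212 to 268 against 189 to 272) and hypodermis (778 to 934 against 739 to 917). They also overlapped for muscle (45418 to 52720 against 40837 to 52094) and dauer cuticle (2130 to 4269 against 1171 to 7084). Of 8 tested sperm and 4 hypodermal markers, 3 and 2 were called higher against the no TIR1 control. In bulk RNA of this kind, more or fewer cells of a type cannot be told apart from more or less RNA per cell. Among the controls, replicate 5 of the condition with neither component and replicate 5 of the no auxin control had the highest oocyte sums, 3173 and 2808.

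In control dauers the ttr RNA was held by few genes. Per kilobase of exon, the mean level over the 15 control libraries was 5466 ± 504 normalized counts (SD) for ttr-41, 4765 ± 621 for ttr-15, 3555 ± 260 for ttr-16 and 3363 ± 288 for ttr-18. The gap between ttr-41 and ttr-15 (1.15 times) was little more than the SD of either gene, and that between ttr-16 and ttr-18 (1.06 times) was smaller than it. The next gene, ttr-48, stood at 1719 ± 107, and ttr-18 was 1.96 times above it. The top 4 genes together held 49.9% of the summed normalized count of the family. At the low end of the tested genes were ttr-42 at 3.22 and ttr-50 at 1.88 normalized counts per kilobase. In experimental animals the order changed at the top and in the middle. There ttr-15 led at 3753 ± 159 per kilobase (SD, n = 5), ttr-18 followed at 3324 ± 219, ttr-41 was in place 3 at 2963 ± 219, and ttr-19 had moved from place 8 to place 26.

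**Figure D1:**
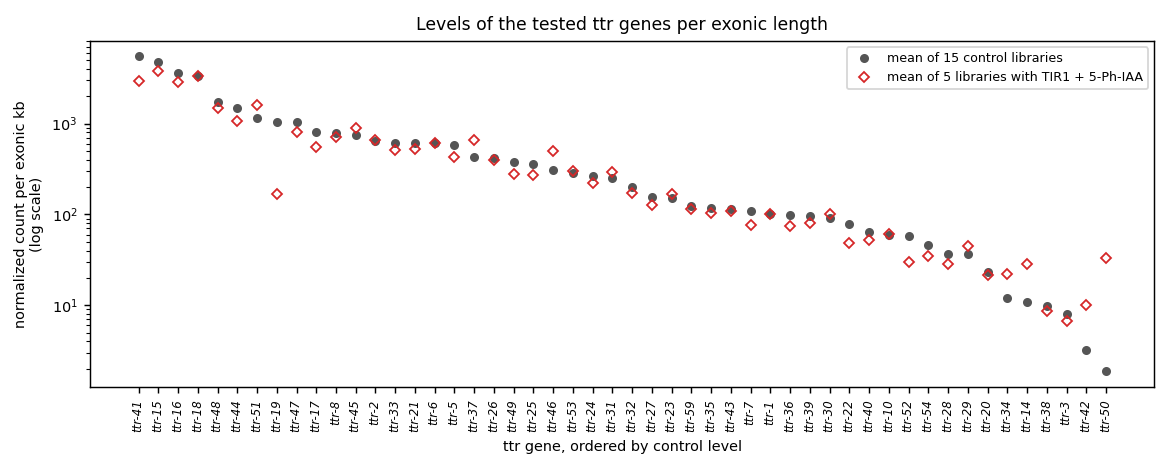
Mean normalized count per exonic kilobase (log axis) of the 50 tested ttr genes, ordered along the x axis by their level in controls; filled points are means of 15 control libraries and open diamonds means of 5 experimental libraries. Most pairs lie close together, while ttr-19 falls from 1052 to 168 and ttr-50 lies far above its control level of 1.88.

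The summed level of the family was lower in experimental animals. The 5 experimental libraries had 14920, 15511 and 15775 normalized counts as lowest, median and highest, whereas the lowest of the 15 control libraries had 16409. The mean was 15418 ± 375 (SD, n = 5) in experimental animals, 19080 ± 669 in the no TIR1 control and 17522 ± 943 in the no auxin control, a decrease of 19.2% and 12.01%. As a share of the reads outside ribosomal RNA, ttr genes took 0.163% to 0.173% in experimental libraries and 0.183% to 0.219% in controls, so the groups were also apart on that scale. The condition with neither component had a mean of 19079 ± 740, and TIR1 alone lay 8.16% below it with overlapping libraries. Few genes carried the net decrease. Against the no TIR1 control, ttr-41 accounted for 39.0% of it, ttr-15 for 21.5%, ttr-16 for 13.2% and ttr-19 for 12.98%, and against the no auxin control ttr-41 accounted for 46.3% and ttr-19 for 18.4%.

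A gene was called when its limma adjusted p was below 0.05 and it changed at least 1.5-fold, which is 0.585 on the log2 scale. Against the no TIR1 control, 8 of 50 ttr genes (16%) were called, beside 9.17% of all tested genes. The 4 called higher were ttr-14, ttr-42, ttr-46 and ttr-50 (8%, beside 6.78% of all genes), and the 4 called lower were ttr-17, ttr-19, ttr-41 and ttr-52 (8%, beside 2.39%). The means of ttr-42 and ttr-50 over the control libraries were 1.54 and 1.72, below the minimum of 2. Both thus entered the test through their experimental values, and their part of this and the following counts carries little weight. Against the no auxin control, 6 of 50 (12%) were called, beside 8.88%: ttr-37, ttr-46 and ttr-50 were higher (6%, beside 6.61%) and ttr-19, ttr-41 and ttr-52 were lower (6%, beside 2.26%). The share of ttr genes called higher was thus near that of all genes in both comparisons, and the share called lower was above it, on counts of 4 and 3 genes. By adjusted p alone, 21 of 50 passed in the comparison with the no TIR1 control (42%, beside 19.7%), 14 of them lower and 7 higher (28% and 14%, beside 8.37% and 11.3%). In the comparison with the no auxin control 16 passed (32%, beside 18.9%), 11 lower and 5 higher (22% and 10%, beside 7.38% and 11.6%). The median log2 fold change of the tested members was -0.14 against the no TIR1 control, where it was -0.01 over all genes, and -0.19 relative to the no auxin control, where it was -0.02. These comparisons share the experimental libraries and are not independent of each other. All 5 experimental values lay below all 15 control values for 6 genes (12%, beside 2.5% of all genes): ttr-5, ttr-16, ttr-19, ttr-41, ttr-44 and ttr-47. They lay above all controls for 3 genes (6%, beside 4.53%): ttr-37, ttr-46 and ttr-51.

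**Figure D2:**
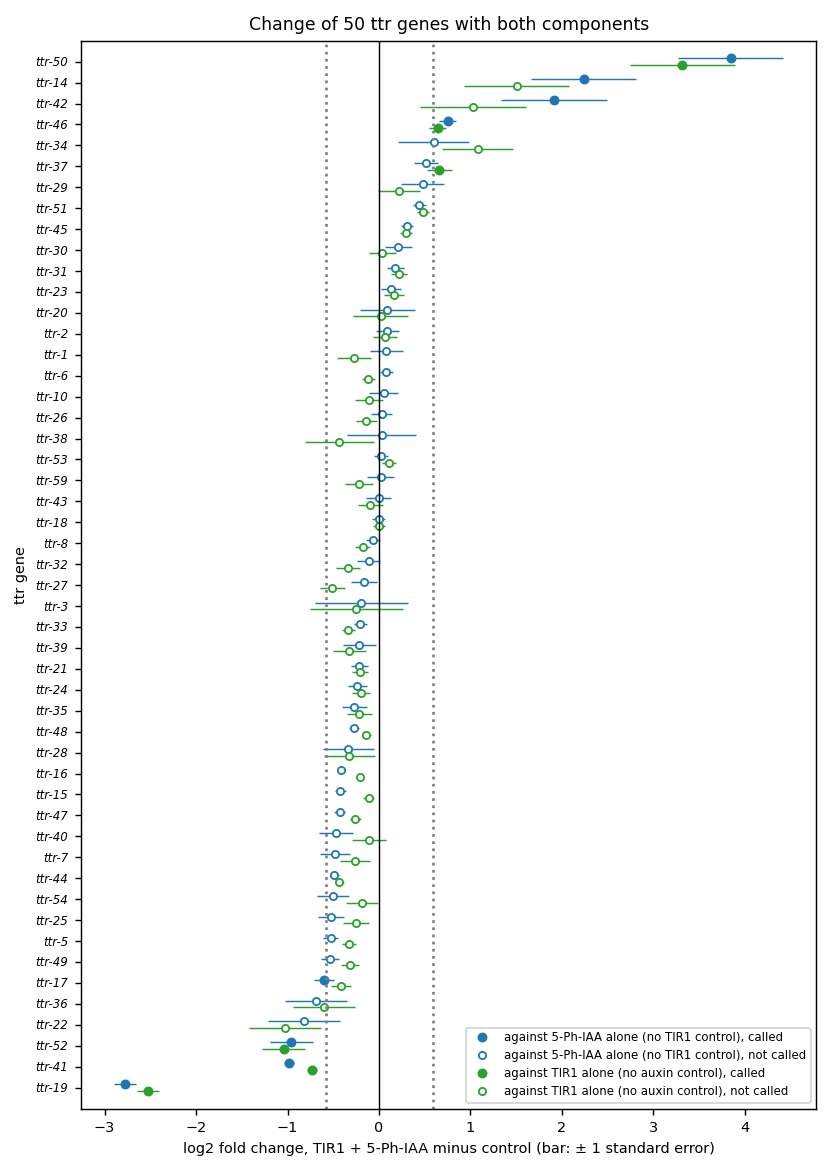
Log2 fold change of each of the 50 tested ttr genes (y axis, ordered by the blue values), experimental minus no TIR1 control in blue and minus no auxin control in green, with bars of 1 standard error; filled points were called and dotted lines mark 1.5-fold. Most points lie between the dotted lines, ttr-19 stands apart at -2.77 and -2.53, and ttr-50 at 3.85 and 3.32.

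**Figure D3:**
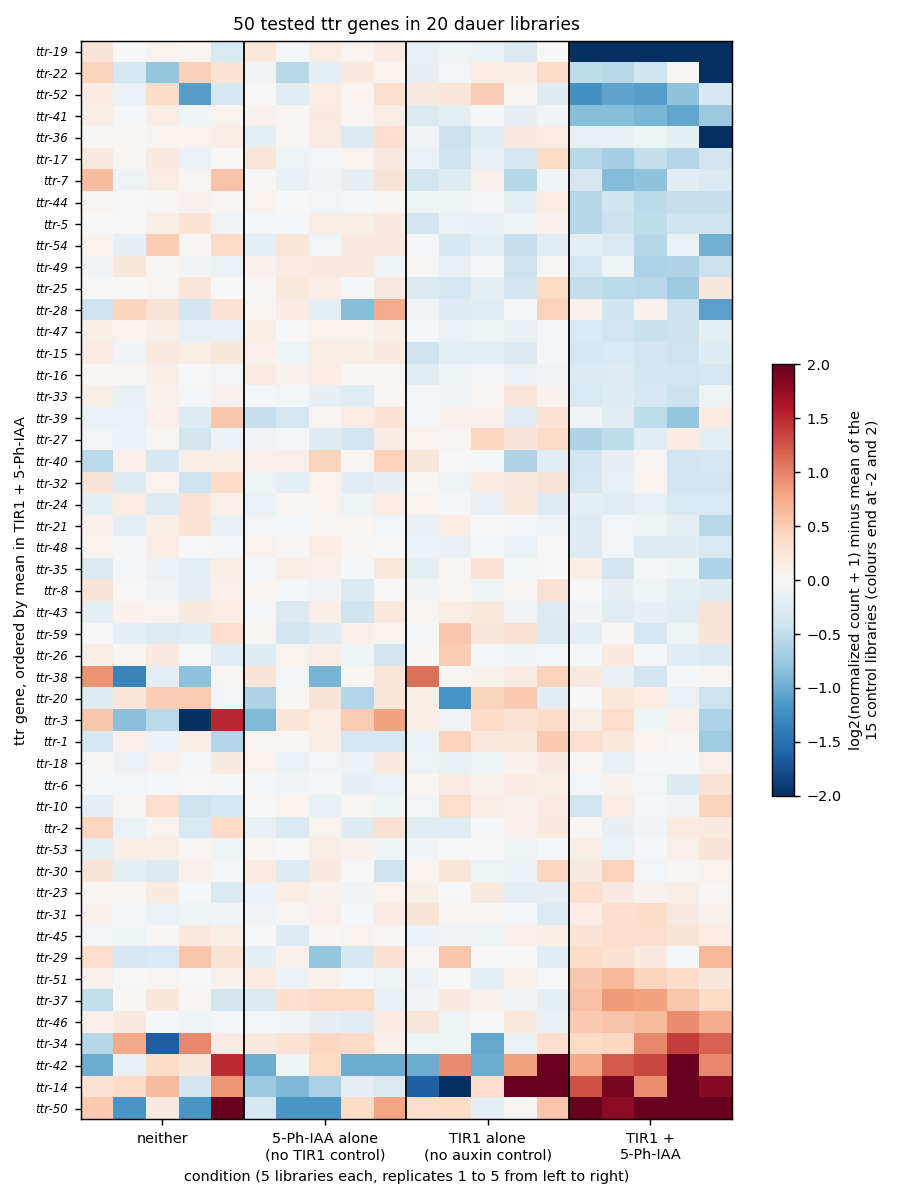
Each row is 1 of the 50 tested ttr genes and each column 1 of the 20 libraries in their 4 conditions; colour gives log2(normalized count + 1) minus the mean of the 15 control libraries, with colours ending at -2 and 2. The experimental columns are blue throughout for ttr-19 and ttr-41 and red throughout for ttr-46, ttr-14 and ttr-50, with some of the low-count genes also varying among controls.

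The largest decrease was that of ttr-19 (WBGene00007535, chromosome V, 10226828 to 10227433, minus strand), a member with no assigned role. Its normalized counts were 81.2, 82.0, 72.0, 59.4 and 119 in experimental replicates 1 to 5, 597, 502, 571, 542 and 580 in the no TIR1 control, 463, 483, 472, 425 and 509 in the no auxin control, and 617, 514, 538, 535 and 418 with neither component. Every experimental library lay far below the lowest control, and the 3 control conditions overlapped one another. The log2 fold change was -2.77 (SE 0.12, adjusted p = 3.70e-15) against the no TIR1 control and -2.53 (SE 0.12, adjusted p = 2.60e-14) relative to the no auxin control, or 6.84-fold and 5.77-fold lower. The effect of 5-Ph-IAA with TIR1 differed from its effect without TIR1 by -2.63 (SE 0.17, adjusted p = 3.60e-11, interaction term). With the oocyte marker sum as a covariate the values were -2.66 and -2.42. The oocyte sums of the conditions hardly overlap, so such a fit cannot tell the condition and these markers apart with confidence. The part of the markers was not tested.

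The most abundant member per kilobase in controls, ttr-41 (WBGene00017374, chromosome II, 4727328 to 4727869, minus strand), was also lower. Experimental libraries had 1487, 1493, 1434, 1310 and 1609 normalized counts, the no TIR1 control 2852, 2765, 3044, 2812 and 2999, the no auxin control 2233, 2362, 2627, 2405 and 2576, and the condition with neither component 2955, 2623, 2971, 2537 and 2820. The experimental values did not overlap any control, and the no auxin control lay at the low side of the controls. Its log2 fold change was -0.98 (SE 0.05, adjusted p = 4.87e-13) against the no TIR1 control and -0.74 (SE 0.05, adjusted p = 1.23e-10) relative to the no auxin control. The interaction term was -0.79 (adjusted p = 4.04e-08), and TIR1 alone differed from neither component by -0.19, which did not pass the test (adjusted p = 0.127). With the oocyte covariate, to which the same limit applies as for ttr-19, the log2 fold changes were -0.97 and -0.72.

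On chromosome IV, ttr-17 (11066019 to 11067026) and ttr-16 (11063530 to 11064137) lie next to each other on the minus strand, and both were lower. Experimental libraries had 252, 231, 264, 246 and 282 normalized counts of ttr-17, the no TIR1 control 438, 343, 354, 389 and 418, the no auxin control 338, 279, 335, 291 and 488, and the condition with neither component 419, 382, 417, 342 and 369. The experimental libraries were below the no TIR1 control, whereas experimental replicate 5 lay just above no auxin replicate 2, and no auxin replicate 5 stood far above its group. The log2 fold change of ttr-17 was -0.60 (SE 0.11, adjusted p = 1.61e-04) against the no TIR1 control, just past 1.5-fold, and -0.41 (adjusted p = 0.00696) relative to the no auxin control, which was not called. Its call was lost, at values from -0.57 to -0.56, when no TIR1 replicate 1, no TIR1 replicate 5 or experimental replicate 2 was left out. Counts of ttr-16 were 1510, 1517, 1401, 1420 and 1441 in experimental libraries, 2044, 1924, 2010, 1882 and 1853 in the no TIR1 control, 1574, 1692, 1752, 1667 and 1733 in the no auxin control, and 1865, 1868, 1987, 1806 and 1749 with neither component. Experimental values were below every control, by log2 fold changes of -0.41 (SE 0.04, adjusted p = 3.01e-08) and -0.21 (SE 0.04, adjusted p = 6.25e-04), short of 1.5-fold. An exon of lin-3, which encodes an EGF-like ligand, overlaps ttr-16 on the opposite strand, and its log2 fold changes were -0.07 and -0.14.

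The gene with the highest unscaled count, ttr-15 (WBGene00011561, chromosome III, 10337847 to 10339440), was lower in both conditions with TIR1. The values were 3229, 2736, 3303, 3138 and 3362 with neither component, 3099, 2722, 3165, 3127 and 3245 in the no TIR1 control, 2162, 2516, 2504, 2377 and 2841 in the no auxin control, and 2286, 2321, 2229, 2169 and 2424 in experimental animals. Experimental libraries lay below the strain without TIR1 and overlapped the no auxin control. On the log2 scale the difference was -0.42 (SE 0.06, adjusted p = 1.08e-05) against the no TIR1 control, -0.11 (SE 0.06, adjusted p = 0.223) relative to the no auxin control, and -0.35 (SE 0.06, adjusted p = 0.00481) for TIR1 alone against neither. The interaction term was -0.08 (SE 0.09, adjusted p = 0.682).

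**Figure D4:**
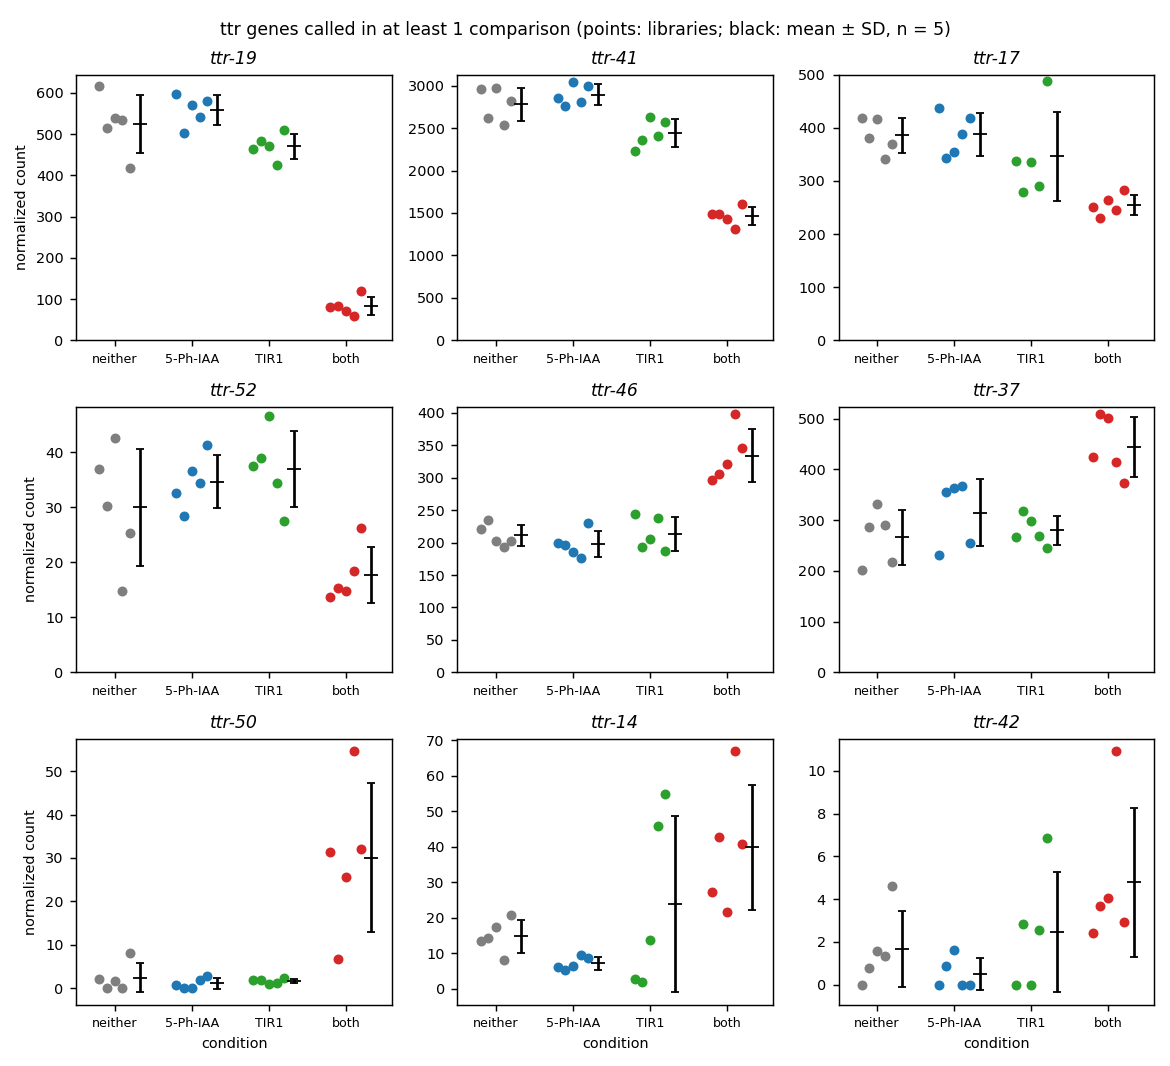
Normalized count in each library (coloured points, 5 per condition, replicates 1 to 5 from left to right) of the 9 ttr genes called in at least 1 comparison, with mean ± SD in black; y axes are linear. Experimental libraries (red, both) do not overlap any control for ttr-19, ttr-41, ttr-46 and ttr-37, and overlap at least 1 control library for ttr-17, ttr-52, ttr-50, ttr-14 and ttr-42.

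Among members with a known role, ttr-52 (WBGene00008719, chromosome III, 13404718 to 13405783, plus strand) was called lower. Its normalized counts were 13.7, 15.3, 14.8, 18.4 and 26.2 in experimental libraries, 32.6, 28.3, 36.7, 34.4 and 41.3 in the no TIR1 control, 37.4, 39.0, 46.6, 34.3 and 27.5 in the no auxin control, and 36.9, 30.3, 42.5, 14.8 and 25.4 with neither component. The experimental libraries were below both main controls but overlapped replicates 4 and 5 of the condition with neither component. By limma the log2 fold change was -0.96 (SE 0.23, adjusted p = 0.00369) against the no TIR1 control and -1.04 (SE 0.23, adjusted p = 0.00193) relative to the no auxin control, and the interaction term was -1.31 (adjusted p = 0.00876). With the oocyte marker sum as a covariate the values were -1.06 and -1.13 and neither passed the test (adjusted p = 0.197 and 0.110), and the part of those markers in the result was not tested further.

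For ttr-33 (WBGene00016505, chromosome V, 7837093 to 7837909) the counts were 293, 304, 286, 268 and 338 in experimental libraries, 353, 350, 324, 310 and 377 in the no TIR1 control, 346, 345, 376, 429 and 386 in the no auxin control, and 393, 327, 386, 357 and 382 with neither component. The experimental libraries were below the no auxin control and overlapped the no TIR1 control through replicate 5. The log2 fold change was -0.34 (adjusted p = 0.00147) relative to the no auxin control, short of 1.5-fold, and -0.20 (adjusted p = 0.0517) against the no TIR1 control. An exon of txt-5 lies on the same strand over ttr-33, so reads in the overlap may have been counted for neither gene. By limma txt-5 itself was called higher in both comparisons. Its log2 fold change was 0.65 (adjusted p = 0.0121) against the no TIR1 control and 0.59 (adjusted p = 0.0254) relative to the no auxin control. The axon regeneration factor ttr-11 was close to undetected, with 7 reads over all 20 libraries, and was not tested.

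The partners of these proteins were looked at with a list of 12 genes for phosphatidylserine exposure, engulfment and axonal fusion, all of which were expressed above the minimum. None was called in any of the 5 comparisons. Of all tested genes 9.17% were called against the no TIR1 control, 8.88% against the no auxin control and 6.73% by the interaction term. With 5-Ph-IAA alone 0.0293% were called, and with TIR1 alone 0.246%. A list of 12 genes is too short to tell 0 calls from these shares. The median log2 fold change of the list was -0.02 against the no TIR1 control and 0.01 relative to the no auxin control. By adjusted p alone 4 of 12 passed against the no TIR1 control, beside 19.7% of all tested genes. These were ced-7, an ABC transporter of the engulfment pathway, at -0.46, nrf-5, a secreted lipid-binding protein, at -0.21, ced-6, an engulfment adaptor, at 0.24, and ced-5, an activator of Rac signalling, at 0.19. Against the no auxin control only ced-7 passed, at -0.45 (adjusted p = 0.00110), beside 18.9% of all genes. The engulfment receptor gene ced-1, to whose product TTR-52 binds, had a log2 fold change of -0.05 (adjusted p = 0.518) against the no TIR1 control.

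Of the genes that rose, ttr-46 (WBGene00011571, chromosome V, 9951233 to 9952178, plus strand) did so from a level of about 200 normalized counts. Experimental libraries had 297, 305, 321, 398 and 346, the no TIR1 control 199, 197, 185, 177 and 231, the no auxin control 243, 193, 205, 238 and 187, and the condition with neither component 221, 235.0, 203, 194 and 202. All experimental libraries were above all controls, and the control conditions overlapped. Its log2 fold change was 0.75 (SE 0.09, adjusted p = 8.52e-07) against the no TIR1 control and 0.64 (SE 0.09, adjusted p = 8.98e-06) relative to the no auxin control, with an interaction term of 0.74 (adjusted p = 2.72e-04). Against the no auxin control the fold change fell just short of 1.5-fold without experimental replicate 4 (0.578, adjusted p = 4.96e-05) and with the oocyte covariate (0.563, adjusted p = 0.0276). The same held without replicate 5 of the experimental condition, of the no auxin control and of the condition with neither component together (0.582, adjusted p = 1.98e-04). With the oocyte covariate the interaction term was 0.65 and did not pass the test (limma adjusted p = 0.0643).

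For ttr-37 (WBGene00017667, chromosome X, 1335364 to 1337175, minus strand) the counts were 425, 508, 500, 414 and 373 in experimental libraries, 232, 356, 364, 367 and 255 in the no TIR1 control, 268, 319, 298, 268 and 246 in the no auxin control, and 201.0, 287, 332, 291 and 218 with neither component. The experimental libraries were above all controls, narrowly so for replicate 5 against no TIR1 replicate 4. On the log2 scale the difference was 0.66 (SE 0.14, adjusted p = 7.80e-04) relative to the no auxin control, which was called, and 0.51 (SE 0.14, adjusted p = 0.00705) against the no TIR1 control, which was not. With the oocyte covariate both passed, at 1.01 and 0.90. The interaction term was 0.42 (adjusted p = 0.187).

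The steepest increases were in members with low counts in controls. The counts of ttr-50 (WBGene00010234, chromosome IV, 11640047 to 11641015, minus strand) were 31.4, 6.73, 25.6, 54.7 and 32.0 in experimental libraries, 0.757, 0, 0, 1.91 and 2.88 in the no TIR1 control, 1.87, 1.90, 0.991, 1.27 and 2.29 in the no auxin control, and 2.23, 0, 1.57, 0 and 8.08 with neither component. Experimental replicate 2 was the lowest of its group and lay below replicate 5 of the condition with neither component, and the other 4 were above every control. In reads, 179 fell on ttr-50 in the experimental libraries and 6 in the no TIR1 control, a depth-corrected ratio of 27.9 (95% counting interval 12.6 to 76.9), and 8 in the no auxin control, a ratio of 17.4 (8.62 to 40.8). On the log2 scale with a pseudocount of 1, which understates changes of such low counts, the values were 3.85 (SE 0.57, adjusted p = 1.53e-05) and 3.32 (SE 0.57, adjusted p = 1.13e-04), with an interaction term of 3.70 (adjusted p = 0.00256). Because ttr-50 passed the minimum of 2 only through its experimental values, these p values carry little weight. The gene rbm-17, whose exon overlaps ttr-50 on the opposite strand, had log2 fold changes of -0.11 and -0.15.

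The oocyte marker sum and the level of ttr-50 were high in many of the same libraries, but not in the same order throughout. Experimental replicate 4 had the highest oocyte sum, 7053, and the highest ttr-50 count, and experimental replicate 2 had the lowest of both, 2816 and 6.73. Among controls, replicate 5 with neither component had the highest of both, 3173 and 8.08. Experimental replicates 1 and 5, with oocyte sums of 4226 and 6723, had much the same ttr-50 level, 31.4 and 32.0. No auxin replicate 5 had 2.29 at a sum of 2808, close to that of experimental replicate 2, and no TIR1 replicate 5 had the lowest sum of all, 1588, but 2.88, the highest ttr-50 count of its group. With the oocyte sum as a covariate the log2 fold changes of ttr-50 were 1.58 (adjusted p = 0.433) and 1.28 (adjusted p = 0.505), so the calls were lost. Without replicate 5 of the condition with neither component, of the no auxin control and of the experimental condition together they were 3.76 and 3.32. The oocyte sums of the conditions hardly overlap, so the condition and these markers cannot be told apart with confidence in such a fit, and their part in the result was not tested further.

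For ttr-14 (WBGene00011460, chromosome X, 10787503 to 10789700, plus strand), the member with the longest exonic sequence at 1415 bases, the counts were 27.3, 42.8, 21.5, 67.0 and 40.7 in experimental libraries, 6.06, 5.31, 6.52, 9.55 and 8.65 in the no TIR1 control, 2.81, 1.90, 13.9, 45.8 and 54.9 in the no auxin control, and 13.4, 14.3, 17.3, 8.08 and 20.8 with neither component. The no auxin control was split, with replicates 4 and 5 inside the experimental range and the others below it. By limma the log2 fold change was 2.24 (SE 0.58, adjusted p = 0.00588) against the no TIR1 control and 1.51 (SE 0.58, adjusted p = 0.0706) relative to the no auxin control. The value relative to the no auxin control depended on the fit. It was 1.96 or 2.02 without no auxin replicate 4 or replicate 5, and then passed the test (adjusted p = 0.0156 and 0.00832), but 0.95 without no auxin replicate 2 (adjusted p = 0.237), 0.83 by edgeR and 0.75 by DESeq2, where it did not pass. With the replicate number as a block it was 1.51 and passed (adjusted p = 0.0281), and with the oocyte covariate the call against the no TIR1 control was lost (1.11, adjusted p = 0.696). An exon of vap-2 overlaps ttr-14 on the opposite strand, and vap-2 had 28.3 normalized counts on average in the no auxin control and 22.6 in experimental libraries, with log2 fold changes of 0.74 and -0.23.

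The counts of ttr-42 (WBGene00045268, chromosome X, 2577742 to 2578262, plus strand) were the lowest of any called member, at 2.41, 3.67, 4.04, 10.9 and 2.91 in experimental libraries, 0, 0.886, 1.63, 0 and 0 in the no TIR1 control, 0, 2.86, 0, 2.54 and 6.87 in the no auxin control, and 0, 0.797, 1.57, 1.35 and 4.62 with neither component. The experimental libraries overlapped the no auxin control and the condition with neither component. The ratio of reads was 9.96 (95% counting interval 3.12 to 50.8) against the no TIR1 control, on 32 and 3 reads, and 2.26 (1.11 to 4.96) against the no auxin control. The log2 fold change was 1.91 (SE 0.58, adjusted p = 0.0196) and 1.02 (SE 0.58, adjusted p = 0.245). This member also passed the minimum only through its experimental values, so these p values carry little weight. The call was lost without experimental replicate 4 (1.61, adjusted p = 0.0719) and with the oocyte covariate, where the value was 0.03.

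**Figure D5:**
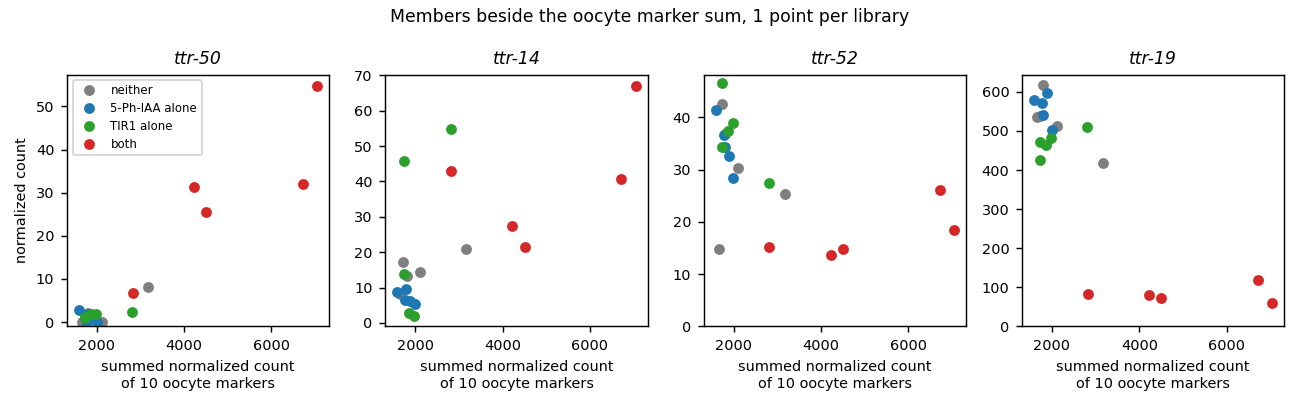
Normalized count of ttr-50, ttr-14, ttr-52 and ttr-19 (y axes) against the summed normalized count of 10 oocyte markers (x axis), 1 point per library coloured by condition. For ttr-50 the highest and lowest experimental points, 54.7 and 6.73, are also those of the highest and lowest oocyte sum, whereas ttr-19 is at 119 or less in all experimental libraries whatever their sum.

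No member was called with either component alone. With 5-Ph-IAA alone against neither, 0 of 50 ttr genes were called, beside 0.0293% of all genes, and 0 had p below 0.05 before adjustment, beside 4.89%. Their log2 fold changes ran from -0.91 to 0.55 with a median of -0.03. With TIR1 alone, 0 of 50 were called by limma, edgeR or DESeq2, beside 0.246% of all genes. Here 9 (18%) had p below 0.05 before adjustment, beside 10.5% of all genes, and ttr-15, lower by less than 1.5-fold, was the member that passed after adjustment (2%, beside 0.603% of all genes). By the interaction term, 5 of 50 (10%) were called, beside 6.73% of all genes: ttr-19, ttr-41 and ttr-52 lower (6%, beside 1.52%) and ttr-46 and ttr-50 higher (4%, beside 5.22%). By adjusted p alone, without the fold cutoff, 11 passed (22%, beside 10.8%). Both interaction counts include ttr-50, which passed the minimum only through its experimental values, so its part of them carries little weight.

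Of the 42 members not called against the no TIR1 control, 10 were lower and 3 higher by adjusted p alone, and the other 29, which did not pass, had log2 fold changes from -0.82 to 0.60. Among these were values as large as those of called genes, in members with a wide spread between libraries. An example is ttr-34, picked after its values were seen, at 9.65, 9.79, 14.8, 20.496 and 17.5 normalized counts in experimental libraries and 6.55, 6.66, 2.97, 6.36 and 9.16 in the no auxin control, which did not overlap. Experimental values did overlap the no TIR1 control (7.69 to 9.77) and the condition with neither component (1.57 to 14.8). Its log2 fold change was 1.08 (SE 0.39, adjusted p = 0.0544) relative to the no auxin control and 0.60 (SE 0.39, adjusted p = 0.328) over the no TIR1 control. For the comparison with the no auxin control ttr-34 was called by edgeR, by DESeq2 and in several other fits. The lowest values against the no TIR1 control among members that did not pass were those of ttr-22 (-0.82) and ttr-36 (-0.69). In experimental replicate 5, the shallowest library, these had 2.91 and 5.82 normalized counts, on 1 and 2 reads. In the other experimental libraries they had 23.9 to 36.2 and 40.3 to 43.7 normalized counts. The smallest adjusted p among those not called was that of ttr-16, followed by ttr-44, at 710 ± 32.6 normalized counts in experimental animals, 996 ± 34.6 in the no TIR1 control and 962 ± 87.6 in the no auxin control (SD, n = 5 each). It differed from them by -0.49 (limma adjusted p = 5.45e-08) and -0.43 (limma adjusted p = 4.17e-07) on the log2 scale. The following members were picked after their values were seen, because all experimental libraries lay outside all controls. For ttr-5 the log2 fold changes were -0.53 and -0.33, for ttr-47 -0.43 and -0.26, and for ttr-51 0.44 and 0.48. The gene H14N18.4, whose exon overlaps ttr-47 on the opposite strand, was lower as well, at -0.27 and -0.56, and reads of the pair cannot be told apart if counting ignored strand.

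Members that lie together in the genome did not all move together. The 58 genes include 29 with another ttr gene within 10 kb, in 12 neighbour groups, and the family is spread over chromosomes V (22 genes), X (12), IV (10), III (9), I (3) and II (2). Besides ttr-16 and ttr-17, the neighbours ttr-45 and ttr-51 on chromosome IV (13250655 to 13255538) were alike in direction, with log2 fold changes over the no TIR1 control of 0.30 for ttr-45 (adjusted p = 0.00194) and 0.44 for ttr-51 (adjusted p = 2.94e-05). Of ttr-40 and ttr-49 on chromosome V, at -0.47 and -0.54, ttr-49 passed (adjusted p = 2.47e-04) and ttr-40 did not (adjusted p = 0.0821). Relative to the no auxin control ttr-49 was at -0.32 (adjusted p = 0.0255) and ttr-40 at -0.11. Of ttr-53 and ttr-54, ttr-54 passed against the no TIR1 control alone, at -0.51 (adjusted p = 0.0398). Of ttr-27, ttr-28 and ttr-29, ttr-27 passed relative to the no auxin control alone, at -0.51 (adjusted p = 0.00933). In the groups of ttr-1, ttr-2 and ttr-3, of ttr-8 and ttr-32, of ttr-35 and ttr-36 and of ttr-30 and ttr-59, no member passed the adjusted p against either main control. In the group of ttr-24, ttr-25 and ttr-26 on chromosome V, ttr-25 alone passed, at -0.52 (adjusted p = 0.00835) against the no TIR1 control, and it did not against the no auxin control (-0.25, adjusted p = 0.235). The abundant ttr-18 stayed at 1812 ± 119 normalized counts in experimental animals beside 1820 ± 176 and 1815 ± 183 in the main controls, with log2 fold changes of 0.00 in both comparisons (adjusted p = 0.980 and 0.996).

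The 8 members below the minimum were ttr-9, ttr-11, ttr-12, ttr-13, ttr-55, ttr-56, ttr-57 and ttr-58. They had 3, 7, 7, 7, 0, 0, 2 and 1 reads over all 20 libraries, and the 3 members on chromosome I, ttr-55, ttr-56 and ttr-58, were all among them. At this depth no difference between conditions was detectable for them. The hydrolase branch of the superfamily is represented by R09H10.3, which lies outside the ttr symbols, at 116 ± 10.8 normalized counts in experimental animals, 157 ± 16.7 in the no TIR1 control and 164 ± 25.7 in the no auxin control (SD, n = 5 each). It differed from them by -0.43 (limma adjusted p = 0.00498) and -0.48 (limma adjusted p = 0.00220) on the log2 scale, which passed the test but not 1.5-fold. Its homologue ZK697.8 had 6 reads in all and was not tested.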

How the data were processed

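Whole dauer RNA depleted of ribosomal RNA was sequenced as 75-base single-end reads in 1 pool of 20 libraries. Per the labels and the study's methods, the authors ran FastQC, Trimmomatic, STAR (annotation WS284), featureCounts and DESeq2 on Galaxy, with versions and the strand setting not given in the sources used here. The table deposited by the authors holds a normalized signal, gene counts divided by DESeq2 size factors. Multiplying back gave whole reads for 100% of values (within 0.1 read), and these recovered reads gave the depths. The table's normalized counts were log2-transformed with a pseudocount of 1 and genes with a mean of at least 2 over all libraries were fitted with limma 3.58.1 in R 4.3.3 (empirical Bayes with a mean trend, 1 mean per condition, all 20 libraries). Benjamini-Hochberg adjustment ran over 17090 genes. The interaction term is the effect of 5-Ph-IAA with TIR1 minus its effect without. The test was also run on simulated counts with changes well beyond the 1.5-fold cutoff, which does not bear on calls near that cutoff.

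Members are all rows with a ttr- symbol and a number, and 44113 of 46925 identifiers had a symbol. Described in full were members called in any comparison, ttr-52, ttr-33, ttr-11 and the 3 highest per exonic kilobase. Others named were chosen after their values were seen or had the smallest adjusted p among those not called. Members, gene lists, markers and tests were chosen with earlier results of these data known. Positions and exonic lengths are from the Ensembl WBcel235 annotation. Counting intervals are exact binomial intervals and cover counting error only. Replicates were labelled biological. No pair of replicates was as alike as repeat counts of 1 library would be (lowest chi-square per degree of freedom 2.84). Alternatives were edgeR 4.0.16 and DESeq2 1.42.0 on recovered reads, other pseudocounts, filters and scalings, no fold cutoff, a replicate block, the log2 oocyte marker sum as covariate, fits on the compared groups only and leaving out each library. Leaving out 3 libraries together was added after seeing the data.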

Additional observations from a re-analysis of the deposited data

Results flagged for a closer look

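In 4 of 52 groups of 5 libraries checked over the members described in full and the summed level, 1 library lay far from the other 4, and chance gives about 1 in 20. These were ttr-15 in replicate 2 of the no TIR1 control (the lowest, 2722 normalized counts), ttr-17 in replicate 5 of the no auxin control (the highest, 488), ttr-42 in experimental replicate 4 (the highest, 10.9) and ttr-50 in replicate 5 of the condition with neither component (the highest, 8.08). All 4 libraries have the highest oocyte marker sum of their condition, and the part of those markers was not tested.

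By adjusted p alone, 11 members passed for limma's interaction term (22%, beside 10.8% of all genes). With the 1.5-fold cutoff as well, the effect of 5-Ph-IAA differed with TIR1 from that without it for 5 members (10%, beside 6.73%). The difference was -2.63 on the log2 scale for ttr-19, -1.31 for ttr-52, -0.79 for ttr-41, 0.74 for ttr-46 and 3.70 for ttr-50. For ttr-50, which passed the minimum only through its experimental values, the term carries little weight.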

How the results depend on the processing

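Without the 1.5-fold cutoff, 21 ttr genes were called against the no TIR1 control (8 with it), 16 against the no auxin control (6 with it), 1 for TIR1 alone (0 with it) and 11 by the interaction term (5 with it). Of all tested genes 19.7%, 18.9%, 0.603% and 10.8% were then called. With the oocyte marker covariate the interaction term called 3, and ttr-42, whose value in the report was above 0, was at -0.67 against the no auxin control and -0.17 for the interaction term. The other alternatives kept all 5 counts within 1.5 times. Among them, a minimum mean of 10 left ttr-42 and ttr-50 untested. It gave 6 calls against the no TIR1 control, 5 against the no auxin control and 4 by the interaction term. Of the 13010 genes tested there, 1220, 1197 and 992 were called. Leaving out each library in turn gave 7 to 9 called against the no TIR1 control, beside 1434 to 1596 of all 17090 genes. It gave 6 to 8 against the no auxin control, beside 1368 to 1544. By the interaction term it gave 5 to 6, beside 1002 to 1194. For either component alone it gave 0, beside 4 to 7 for 5-Ph-IAA and 24 to 55 for TIR1. With edgeR and with DESeq2 the counts were 8, 7 and 5, the added gene being ttr-34. Of all genes 1661, 1476 and 1160 were called by edgeR and 1616, 1419 and 1170 by DESeq2. With the covariate 8 and 6 members were called in the main comparisons, beside 620 and 663 of all 17090 genes (1568 and 1517 in the main fit). The members differed. Against the no TIR1 control ttr-14, ttr-42, ttr-50 and ttr-52 were lost, and ttr-7, ttr-25, ttr-37 and ttr-51 were added. Against the no auxin control ttr-46, ttr-50 and ttr-52 were lost, and ttr-17, ttr-27 and ttr-51 were added. By the interaction term ttr-46, ttr-50 and ttr-52 were lost and ttr-51 was added, beside 488 of all genes (1151 in the main fit).

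Replicate numbers are shared between conditions. With the number as a replicate block the counts were 8, 9 and 6, beside 1679, 1610 and 1297 of all genes. For either component alone they were 0, beside 18 for 5-Ph-IAA and 107 for TIR1. The block added ttr-14, ttr-22 and ttr-34 against the no auxin control and ttr-14 by the interaction term. Deviations of same-numbered libraries correlated at -0.10 to 0.25, and not every pair was above 0.1, nor do the labels say what a number marks, so the pairing was not taken from the design. Libraries of different numbers and conditions correlated at -0.18 to 0.13 (mean -0.01). With 5 numbers to choose from, 14 of 20 libraries correlated best with their own, a sign of shared structure that the main fit leaves out. Without replicate 5 of the condition with neither component, of the no auxin control and of the experimental condition together, the counts were 9, 6 and 6. Of all genes 1555, 1460 and 1118 were called there. The 8 members under the minimum are limited by depth, and opposite-strand overlaps by the unknown strand setting. The cause of each change was not tested.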
